A study of Mus musculus with 8 samples.

Results

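The collagen chain family comprised 44 of the 50600 genes in the count table, those whose symbol was Col, digits, a and digits with nothing after. A chain was tested if 2 or more of the 8 libraries held 10 or more counts of it, and 29 of the 44 chains met this limit. They were 9 of 11 fibrillar chains, 7 of 9 network chains, 5 of 9 FACIT chains (fibril-associated collagens) and 8 of 15 chains of other kinds.

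Collagens are the main structural proteins of the extracellular matrix, and every collagen molecule is a helix of 3 alpha chains, each kind of chain with a gene of its own. Fibrillar collagens such as types I, III and V pack side by side into fibrils, FACITs sit on the fibril surface, and network collagens such as type IV form the sheets of basement membranes. In peripheral nerve, Schwann cells rest on a basement membrane rich in type IV collagen, while types I and III fill the connective tissue around the fibres.

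The cells were NF1-MET, a line from a malignant peripheral nerve sheath tumor (MPNST) of a mouse. The mouse carried 1 Nf1 allele flanked by lox sites, 1 Nf1 knockout allele and a MET transgene behind a lox-stop-lox cassette. The lox sites were controlled by a CreERT under the Schwann lineage promoter Plp. *Met* is amplified and *Cdkn2a* deleted in the line, and the labels give its genotype as WT. NF1-MET;sgP53 was made from it with a lentiviral Cas9 guide against *Trp53* and puromycin selection, and is labelled Trp53 KO. Each line received DMSO as the vehicle or 100 nM of the MET kinase inhibitor capmatinib for 24 h, which gave 4 groups of 2 libraries. Each genotype was 1 line, so p53 loss cannot be told apart from other differences between the lines. The columns of the NF1-MET libraries carry the letters EV, which might stand for the empty-vector control that the methods describe, and the text does not say. The labels call the duplicates biological replicates of 1 line, and the protocol describes duplicate wells of a plate, so p-values measure only the spread between these cultures, which may be technical.

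The libraries held 30116810 to 42781371 counts, and *Gm42418*, which overlaps ribosomal RNA sequence, took 1.11% to 13.1% of them. *Trp53* mRNA was at 125.5 to 193 CPM (counts per 1000000 counts of a library whose total was scaled by its TMM factor) in the NF1-MET libraries and at 68.0 to 100.02 CPM in the NF1-MET;sgP53 libraries, in the direction of the labels, and counts cannot show the edit itself. The label MPNST was checked against markers. Of 14 Schwann lineage genes 8 passed the count filter, and *Sox10* reached at most 0.175 CPM. *Sox2* and *Sox9* led the list in vehicle and *Egr2* in capmatinib. Summed immune, endothelial and epithelial markers stayed under 2 CPM in every library. In bulk RNA, fewer cells of a type and less RNA per cell cannot be told apart.

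Collagen made up a large share of the RNA, and more of it after capmatinib. The 44 chains took 1.29% and 1.37% of all counts in the NF1-MET vehicle libraries and 4.33% and 4.30% in the capmatinib libraries. In NF1-MET;sgP53 the shares were 1.44% and 1.53% in vehicle and 4.30% and 4.69% in capmatinib. With *Gm42418* left out of the counts they were 1.43% and 1.44% in vehicle and 4.89% and 4.95% in capmatinib in NF1-MET. In NF1-MET;sgP53 they were then 1.57% and 1.58% in vehicle and 4.78% and 4.74% in capmatinib, so the treated libraries of NF1-MET lay higher. The summed level rose from 12663 and 12714 CPM to 47104 and 47908 CPM in NF1-MET and from 13838 and 13925 CPM to 45971 and 45319.8 CPM in NF1-MET;sgP53. The treated and untreated libraries did not overlap in either line. Each Wilson 95% interval was within 0.00727 percentage points of its share of all counts, for counting error only.

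Type I collagen dominated the family. *Col1a1* and *Col1a2* together held 55.2% to 65.6% of the collagen counts of a library. By mean CPM among all genes, a scale that does not allow for length, *Col1a1* stood at rank 18 in NF1-MET vehicle and rank 2 in NF1-MET capmatinib, and at rank 9 and rank 2 in NF1-MET;sgP53. *Col1a2* moved from rank 7 to rank 3 and from rank 6 to rank 3. *Col12a1* moved from rank 239 to rank 16 and from rank 216 to rank 18. Per kilobase of the longest transcript, *Col1a2* led in every group, followed by *Col1a1* and *Col3a1*, while per kilobase of all annotated exons *Col1a1* led in every group.

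**Figure D1:**
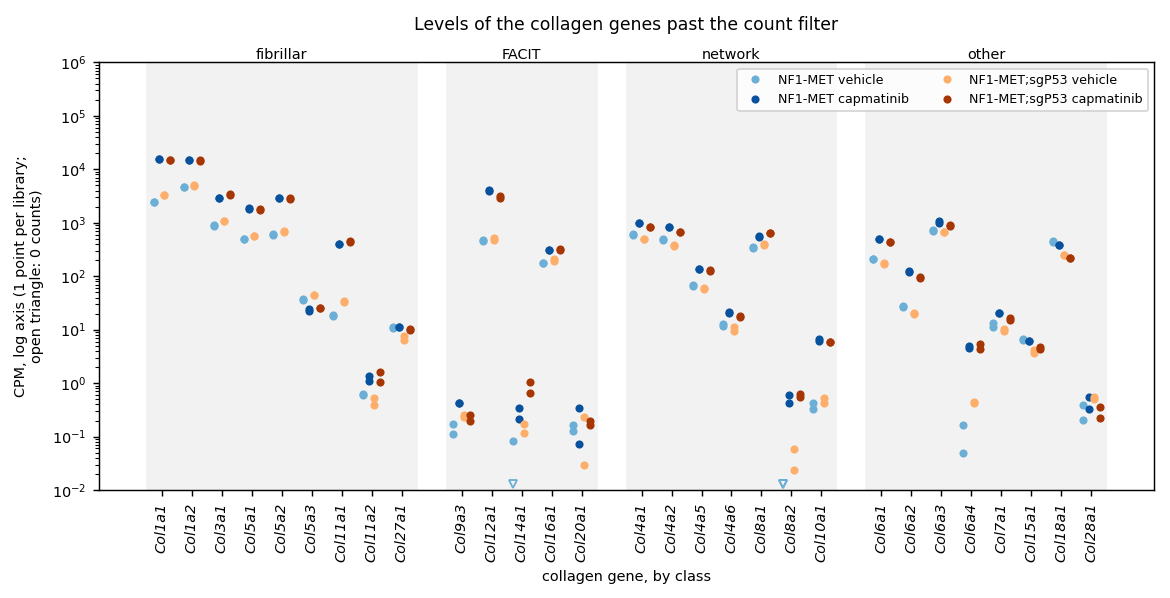
Level of the 29 tested collagen genes in CPM (log axis), by class, with 1 point for each of the 8 libraries and the 4 groups in colour. The replicate points of the chains above 10 CPM lie almost on each other, and the capmatinib points lie above the vehicle points for most chains, with *Col5a3* and *Col18a1* as exceptions in both lines.

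The first question was what MET inhibition did to each chain within each line. Capmatinib raised 23 of 29 chains in NF1-MET and lowered 2, where 35.5% of all genes tested were called higher and 34.7% lower (70.2% in either direction). It raised 23 and lowered 2 in NF1-MET;sgP53, against 34.2% and 33.4% of all genes (67.6% together). A call is a Benjamini-Hochberg adjusted p under 0.05 over every tested gene, from the quasi-likelihood F-test of edgeR. The median log2 fold change of the chains was 1.00 in NF1-MET next to 1.11 in NF1-MET;sgP53, beside 0.0020 and 0.0049 over all genes. At least a 2-fold rise was called for 15 chains in each line, against 11.5% and 10.4% of all genes. *Col8a2*, *Col14a1*, *Col9a3* and *Col20a1* reached 10 counts in fewer than 2 vehicle libraries and passed the filter with the help of capmatinib libraries, *Col8a2* and *Col14a1* through these alone. Without the 4 chains, a choice made after seeing the data, 20 of 25 were called higher in NF1-MET and 21 of 25 in NF1-MET;sgP53, with 2 lower in each. At least a 2-fold rise was then called for 12 and 13, and the medians were 0.94 and 1.11.

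Between the lines, 22 chains were called higher in both and 2, *Col5a3* and *Col18a1*, lower in both. The 22 include *Col8a2* and *Col14a1*, which passed the filter through capmatinib libraries alone. The share of all genes called alike in both lines is not given here. In NF1-MET 35.5% of all genes were higher and 34.7% lower, and in NF1-MET;sgP53 34.2% and 33.4%. *Col9a3* was called in NF1-MET alone and *Col27a1* in NF1-MET;sgP53 alone, and *Col15a1*, *Col20a1* and *Col28a1* were called in neither. No chain was called in opposite directions. The median change differed among the classes, which held 5 to 9 tested chains. The fibrillar median was 1.69 on the log2 scale in NF1-MET compared with 1.64 in NF1-MET;sgP53. The network median was 0.78 and 0.85, or 0.76 and 0.83 without *Col8a2*. The FACIT median was 1.52 and 0.65, or 1.94 and 1.64 over the 2 chains that passed the filter without capmatinib libraries. For chains of other kinds it was 0.67 and 0.54. Single fibrillar chains in NF1-MET ran from -0.65 to 4.41.

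**Figure D2:**
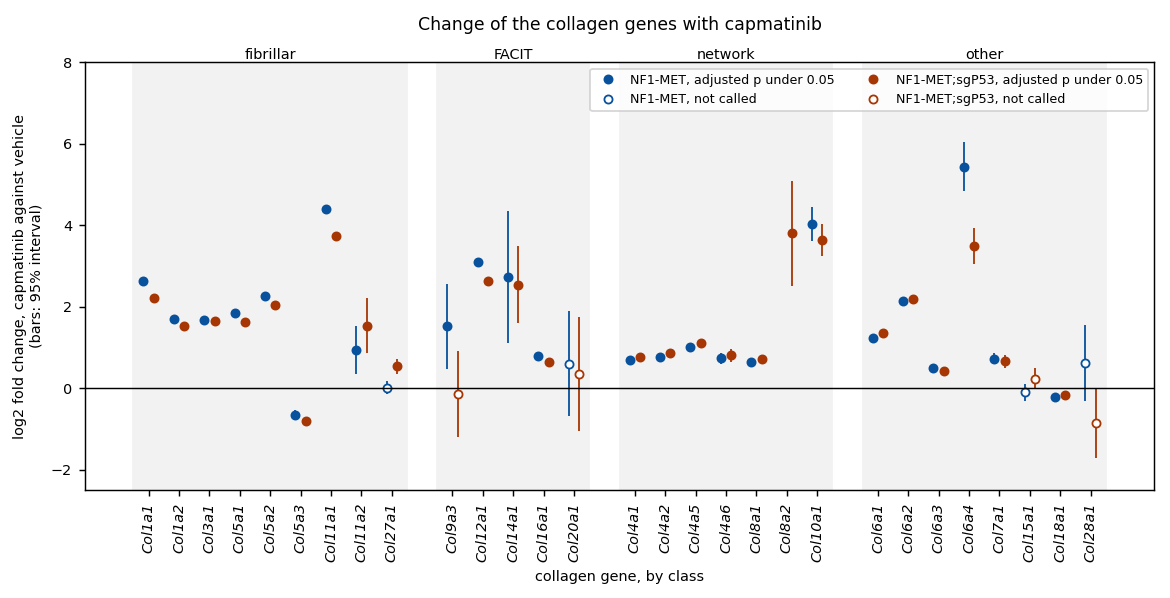
Log2 fold change of each tested collagen gene with capmatinib in NF1-MET (blue) and NF1-MET;sgP53 (brown), with bars of the 95% interval and open symbols where the adjusted p was not under 0.05. Fibrillar and FACIT chains spread from *Col5a3* at -0.65 to *Col11a1* at 4.41 in NF1-MET, the *Col4* chains sit between 0.71 and 1.11 over both lines, and *Col8a2* in NF1-MET is not drawn because its vehicle libraries had 0 counts.

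Among the fibrillar chains, 7 of 9 rose and 1 fell in NF1-MET, and 8 rose and 1 fell in NF1-MET;sgP53. Of all genes, 35.5% and 34.2% were called higher in these lines and 34.7% and 33.4% lower. The type I chains had the most counts. *Col1a1*, the alpha-1 chain of type I collagen of bone, skin and tendon (chr11:94936224-94953042, mm10, plus strand), measured 2409.9 and 2485 CPM in vehicle and 15263 and 15517 CPM in capmatinib in NF1-MET, and 3268 and 3289 CPM in vehicle and 15145 and 15203 CPM in capmatinib in NF1-MET;sgP53. *Col1a2*, its alpha-2 partner (chr6:4504814-4541544, plus strand), measured 4579 and 4594 CPM in vehicle and 14907 and 15134 CPM in capmatinib in NF1-MET, and 4974 and 5063 CPM in vehicle and 14651 and 14544 CPM in capmatinib in NF1-MET;sgP53. For both chains every capmatinib library lay above every vehicle library, and the NF1-MET vehicle libraries were the lowest of all. The log2 fold change of *Col1a1* was 2.64 ± 0.015 (SE) in NF1-MET next to 2.21 ± 0.017 in NF1-MET;sgP53. That of *Col1a2* was smaller, 1.69 ± 0.013 and 1.54 ± 0.017. Adjusted p was 1.59e-43 and 9.21e-28 for *Col1a1* by Benjamini-Hochberg adjustment of the edgeR test.

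Type III and type V collagen join type I in mixed fibrils, and *Col3a1*, *Col5a1* and *Col5a2* rose as well. *Col3a1*, the only chain of type III, measured 897 and 879 CPM in vehicle and 2902 and 2879.5 CPM in capmatinib in NF1-MET, and 1079 and 1065 CPM in vehicle and 3426 and 3303 CPM in capmatinib in NF1-MET;sgP53. *Col5a1*, which helps set fibril diameter, measured 505 and 508 CPM in vehicle and 1808 and 1863 CPM in capmatinib in NF1-MET, and 570.0 and 569.7 CPM in vehicle and 1801 and 1747 CPM in capmatinib in NF1-MET;sgP53. *Col5a2*, its partner, measured 602 and 606 CPM in vehicle and 2957 and 2951 CPM in capmatinib in NF1-MET, and 686 and 697 CPM in vehicle and 2879.6 and 2796 CPM in capmatinib in NF1-MET;sgP53. Treated and untreated libraries stayed apart for all of these chains in both lines. In NF1-MET and then NF1-MET;sgP53 the log2 fold changes were 1.69 ± 0.017 and 1.65 ± 0.021 for *Col3a1*, 1.84 ± 0.020 and 1.64 ± 0.023 for *Col5a1*, and 2.27 ± 0.018 and 2.04 ± 0.022 for *Col5a2*. *Col3a1* (chr1:45311538-45349706, plus strand) and *Col5a2* (chr1:45374321-45503282, minus strand) are neighbours with 24614 bases between them.

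*Col5a3*, the third type V chain, went the other way. It measured 38.1 and 35.2 CPM in vehicle and 22.7 and 24.4 CPM in capmatinib in NF1-MET, and 44.1 and 43.7 CPM in vehicle and 25.5 and 25.2 CPM in capmatinib in NF1-MET;sgP53, and the capmatinib libraries were the lower ones in both lines without overlap. Its log2 fold change was -0.65 ± 0.056 in NF1-MET compared with -0.80 ± 0.048 in NF1-MET;sgP53, so that the chains of 1 collagen type were called in opposite directions.

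The largest fibrillar change was in type XI, a minor fibril collagen best known from cartilage. *Col11a1* (chr3:114030540-114220718, plus strand) measured 18.1 and 18.9 CPM in vehicle and 398 and 401 CPM in capmatinib in NF1-MET, and 33.4 and 34.6 CPM in vehicle and 461 and 445 CPM in capmatinib in NF1-MET;sgP53. Every capmatinib library was far above every vehicle library, with log2 fold changes of 4.41 ± 0.033 in NF1-MET next to 3.74 ± 0.036 in NF1-MET;sgP53. Its partner *Col11a2* stayed between 0.398 and 1.62 CPM in all libraries, with log2 fold changes of 0.94 ± 0.30 and 1.54 ± 0.34, both called higher. The *Col11a2* call in NF1-MET was lost in DESeq2's test and without NF1-MET capmatinib replicate 1, where the log2 fold change was 0.81.

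*Col27a1*, a fibrillar chain of cartilage, measured 11.0 and 10.6 CPM in vehicle and 11.0 and 11.0 CPM in capmatinib in NF1-MET, and 6.40 and 7.46 CPM in vehicle and 10.4 and 9.78 CPM in capmatinib in NF1-MET;sgP53. Its level in NF1-MET was alike in all 4 libraries, with a log2 fold change of 0.01 ± 0.083, whereas the NF1-MET;sgP53 vehicle libraries lay below all others and the fold change there was 0.54 ± 0.097. *Col2a1* and *Col24a1* did not pass the count filter.

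The windows around the start sites of 3 fibrillar chains that rose together are shown, as RefSeq gives them for GRCm38.p6, from 250 bases before to 50 after the start. *Col1a1*, *Col5a2* and *Col12a1* had no entry, and the window of *Col5a1*, which holds none of the motifs searched, is left out. Capitals mark matches to 4 motifs searched on both strands, none of which contains another. The first was CCAAT, the CCAAT box, which reads ATTGG on the other strand. The second was TATAAA, the core promoter element known by its first letters. The third was CATTCC, a core of TEAD sites, and the fourth was TGANTCA, an AP-1 site. The windows lie at chr6:4505368-4505667, chr1:45311288-45311587 and chr3:114030290-114030589, all on the plus strand, and that of *Col1a2* begins inside the annotated gene, after its first start site.
Col1a2: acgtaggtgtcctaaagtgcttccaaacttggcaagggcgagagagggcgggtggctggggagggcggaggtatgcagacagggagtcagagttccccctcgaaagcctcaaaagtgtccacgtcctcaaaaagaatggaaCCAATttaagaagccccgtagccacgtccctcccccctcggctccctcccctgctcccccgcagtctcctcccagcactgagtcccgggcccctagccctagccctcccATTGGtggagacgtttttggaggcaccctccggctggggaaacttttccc
Col3a1: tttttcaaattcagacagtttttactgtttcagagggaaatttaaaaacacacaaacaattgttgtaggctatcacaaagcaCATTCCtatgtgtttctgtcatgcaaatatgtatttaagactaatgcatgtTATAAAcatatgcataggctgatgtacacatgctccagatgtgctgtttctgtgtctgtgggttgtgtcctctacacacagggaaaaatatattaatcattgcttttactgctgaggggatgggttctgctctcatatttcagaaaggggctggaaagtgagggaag
Col11a1: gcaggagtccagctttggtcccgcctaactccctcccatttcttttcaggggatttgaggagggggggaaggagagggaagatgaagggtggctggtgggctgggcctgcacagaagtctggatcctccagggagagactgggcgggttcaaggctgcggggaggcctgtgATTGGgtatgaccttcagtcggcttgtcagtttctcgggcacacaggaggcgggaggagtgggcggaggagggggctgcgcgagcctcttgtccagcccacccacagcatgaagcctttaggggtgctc

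These windows differ in their matches. That of *Col1a2* holds CCAAT at base 142 and ATTGG at base 251, counted from the 5′ end. The *Col3a1* window holds CATTCC at base 83 and TATAAA at base 134, and that of *Col11a1* holds ATTGG at base 172. The 24 tested chains in the table had 26 windows. CCAAT was found in 10 of these windows (38.5%), TATAAA in 3 (11.5%), CATTCC in 5 (19.2%) and TGANTCA in 1 (3.85%). The shares among all 32851 windows of the table were 37.4%, 13.6%, 14.7% and 7.81%. A match is a description of letters and no test of a factor.

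FACIT chains held the largest rise among the abundant collagens outside type XI. *Col12a1*, which bridges fibrils in tissue under tension (chr9:79598991-79718831, minus strand), measured 477 and 460.3 CPM in vehicle and 3914 and 4147 CPM in capmatinib in NF1-MET, and 518 and 485 CPM in vehicle and 3233 and 2953 CPM in capmatinib in NF1-MET;sgP53. *Col16a1*, a FACIT found near basement membranes and fibrils, measured 179 and 178 CPM in vehicle and 316 and 312 CPM in capmatinib in NF1-MET, and 196 and 207 CPM in vehicle and 316 and 317 CPM in capmatinib in NF1-MET;sgP53. For both chains the 4 capmatinib libraries lay above the 4 vehicle libraries. *Col12a1* rose by 3.09 ± 0.022 on the log2 scale in NF1-MET compared with 2.62 ± 0.034 in NF1-MET;sgP53, and *Col16a1* by 0.80 ± 0.024 and 0.65 ± 0.032.

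The other FACIT chains were near the limit of detection. *Col14a1* had 3 and 0 counts in the NF1-MET vehicle libraries and 6 and 13 in capmatinib, a ratio of 7.30 after scaling to library size (exact 95% interval 2.15 to 38.5, counting error only). In NF1-MET;sgP53 it had 6 and 5 counts in vehicle and 23 and 38 in capmatinib, with a log2 fold change of 2.55 ± 0.48. *Col9a3* lay between 0.1102 and 0.434 CPM. It reached 10 counts in 1 library outside the NF1-MET capmatinib group, so that it passed the filter through the group in which it was called higher, at 1.52 ± 0.54. The calls of *Col9a3* and *Col14a1* in NF1-MET were lost in DESeq2's test, that of *Col9a3* also without NF1-MET vehicle replicate 1 (1.24), and that of *Col14a1* without NF1-MET vehicle replicate 2 (1.73) or capmatinib replicate 2 (2.34). *Col20a1* had 1 to 13 counts and shares 79 bp of exon with a transcript on its own strand that had 106 to 209 counts, so its values are uncertain. *Col9a1*, *Col9a2*, *Col19a1* and *Col22a1* did not pass.

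All 7 tested network chains were called higher in both lines, 1 of which, *Col8a2*, passed the count filter through capmatinib libraries alone. The other 6 rose by less than the main fibrillar chains where the level was high. *Col4a1* and *Col4a2*, the standard chains of every basement membrane, are transcribed away from each other from starts 21 bases apart (chr8:11198423-11312826, minus strand, and chr8:11312805-11449287, plus strand). The RefSeq windows of these chains are shown because they share sequence, with the 78 bases common to both in capitals, at chr8:11312777-11313076 on the minus strand and chr8:11312555-11312854 on the plus strand.
Col4a1: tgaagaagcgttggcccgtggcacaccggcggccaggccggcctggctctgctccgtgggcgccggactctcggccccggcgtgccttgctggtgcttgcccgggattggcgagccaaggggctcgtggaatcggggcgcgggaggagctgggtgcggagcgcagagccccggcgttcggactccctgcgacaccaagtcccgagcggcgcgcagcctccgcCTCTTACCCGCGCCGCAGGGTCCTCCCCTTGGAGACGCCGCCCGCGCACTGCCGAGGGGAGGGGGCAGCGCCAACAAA
Col4a2: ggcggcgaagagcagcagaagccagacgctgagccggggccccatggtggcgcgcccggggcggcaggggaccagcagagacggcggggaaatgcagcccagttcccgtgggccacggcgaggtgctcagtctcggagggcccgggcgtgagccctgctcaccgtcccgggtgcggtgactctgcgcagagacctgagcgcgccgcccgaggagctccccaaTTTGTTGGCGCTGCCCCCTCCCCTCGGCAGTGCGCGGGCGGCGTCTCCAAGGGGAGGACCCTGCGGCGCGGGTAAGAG

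*Col4a1* measured 616 and 601 CPM in vehicle and 1006 and 1000.4 CPM in capmatinib in NF1-MET, and 501 and 489 CPM in vehicle and 844 and 848 CPM in capmatinib in NF1-MET;sgP53. *Col4a2* measured 481 and 489 CPM in vehicle and 834 and 848 CPM in capmatinib in NF1-MET, and 371 and 382 CPM in vehicle and 686 and 676 CPM in capmatinib in NF1-MET;sgP53. These chains moved side by side, with capmatinib above vehicle in each line and NF1-MET;sgP53 below NF1-MET within each treatment. Log2 fold changes with capmatinib were 0.71 ± 0.020 and 0.77 ± 0.025 for *Col4a1*, and 0.78 ± 0.021 and 0.85 ± 0.027 for *Col4a2*, in NF1-MET and NF1-MET;sgP53. The exons overlap by 22 bp on opposite strands, 0.295% of the exon length of *Col4a1*, and the strand setting of the counting is not given in the sources used here.

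Alpha-5 and alpha-6 chains build a second kind of type IV network and are also transcribed apart, from starts 1309 bases from each other on the X chromosome. *Col4a5* measured 67.5 and 66.2 CPM in vehicle and 135 and 136 CPM in capmatinib in NF1-MET, and 61.1 and 57.3 CPM in vehicle and 129 and 127 CPM in capmatinib in NF1-MET;sgP53. *Col4a6* measured 12.8 and 11.9 CPM in vehicle and 20.5 and 21.1 CPM in capmatinib in NF1-MET, and 11.0 and 9.36 CPM in vehicle and 17.6 and 18.1 CPM in capmatinib in NF1-MET;sgP53. Every capmatinib library was above every vehicle library for both. The log2 fold changes of *Col4a5*, 1.00 ± 0.030 and 1.11 ± 0.038, were larger than those of *Col4a6*, 0.74 ± 0.070 and 0.81 ± 0.083. The remaining pair, *Col4a3* and *Col4a4*, which serves the kidney filter, did not pass the count filter, and *Col4a3* was listed at 0 in every library.

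The short-chain network collagens differed widely in level. *Col8a1*, a chain of vessel walls and the cornea, measured 340.5 and 352 CPM in vehicle and 548 and 556 CPM in capmatinib in NF1-MET, and 388 and 394 CPM in vehicle and 632 and 645 CPM in capmatinib in NF1-MET;sgP53 and changed by 0.66 ± 0.023 and 0.71 ± 0.027 on the log2 scale. *Col8a2*, its partner, had 0 and 0 counts in NF1-MET vehicle and 12 and 23 in capmatinib. Against a floor of 3 counts over the group it was at least 13.45-fold higher, which leaves out the counting error of the treated libraries, and the exact 95% interval of the ratio began at 10.37. With 2 and 1 counts against 22 and 20 in NF1-MET;sgP53, the ratio was 15.1 (exact 95% interval 4.82 to 76.1). *Col10a1*, a marker of growth-plate cartilage, had 12 to 18 counts in the vehicle libraries and 183 to 235 in capmatinib, with log2 fold changes of 4.03 ± 0.21 and 3.65 ± 0.20. It shares 18 bp of exon with *Nt5dc1* on the opposite strand, which had 355 to 546 counts.

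Type VI collagen forms beaded filaments around cells from alpha-1, alpha-2 and a longer chain. *Col6a1* measured 207 and 214 CPM in vehicle and 507 and 496 CPM in capmatinib in NF1-MET, and 169 and 177 CPM in vehicle and 437 and 446 CPM in capmatinib in NF1-MET;sgP53. *Col6a2* measured 28.0 and 26.6 CPM in vehicle and 123 and 120.5 CPM in capmatinib in NF1-MET, and 20.6 and 20.01 CPM in vehicle and 94.8 and 92.0 CPM in capmatinib in NF1-MET;sgP53. *Col6a3*, the longer chain, measured 727 and 715 CPM in vehicle and 999 and 1061 CPM in capmatinib in NF1-MET, and 679 and 668 CPM in vehicle and 927 and 872 CPM in capmatinib in NF1-MET;sgP53. Capmatinib libraries were above vehicle libraries in each line for all 3 chains, by unequal amounts. *Col6a2* rose by 2.14 ± 0.038 and 2.20 ± 0.041 on the log2 scale, *Col6a1* by 1.24 ± 0.024 and 1.35 ± 0.032, and *Col6a3* by 0.50 ± 0.023 and 0.42 ± 0.028. *Col6a4*, an alternative longer chain, had 2 to 18 counts in the vehicle libraries and 137 to 187 in capmatinib, with log2 fold changes of 5.44 ± 0.31 and 3.49 ± 0.23. In NF1-MET the first was 6.46 without vehicle replicate 1 and 4.81 without vehicle replicate 2. Its neighbours *Col6a5* and *Col6a6* did not pass.

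The remaining chains included the second one that fell. *Col18a1*, a basement membrane proteoglycan whose end fragment is endostatin, measured 447 and 443 CPM in vehicle and 392 and 387 CPM in capmatinib in NF1-MET, and 247 and 248 CPM in vehicle and 218 and 221 CPM in capmatinib in NF1-MET;sgP53. Its capmatinib libraries lay below its vehicle libraries in each line, with log2 fold changes of -0.21 ± 0.022 and -0.17 ± 0.030. *Col7a1*, the anchoring fibril of skin, measured 13.3 and 11.4 CPM in vehicle and 20.6 and 20.7 CPM in capmatinib in NF1-MET, and 9.36 and 10.4 CPM in vehicle and 16.5 and 14.9 CPM in capmatinib in NF1-MET;sgP53 and changed by 0.73 ± 0.074 and 0.66 ± 0.084. *Col15a1*, related to *Col18a1*, lay between 3.65 and 6.69 CPM and *Col28a1*, a chain linked to Schwann cells of peripheral nerve, between 0.201 and 0.553 CPM. For neither was the effect of capmatinib called, at -0.10 ± 0.11 and 0.24 ± 0.13 for *Col15a1* and 0.62 ± 0.48 and -0.85 ± 0.44 for *Col28a1*. Without 1 library the *Col28a1* value ran from 0.15 to 1.14 in NF1-MET and from -1.23 to -0.57 in NF1-MET;sgP53. With library totals the -0.28 of *Col15a1* in NF1-MET was called lower.

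All 15 chains that did not pass had at most 9 counts in any library, and *Col9a1*, *Col4a3*, *Col6a6* and *Col13a1* were listed at 0 throughout. The transmembrane chains *Col13a1*, *Col17a1*, *Col23a1* and *Col25a1*, and *Col26a1*, belong here. Just inside the threshold, *Col20a1* reached 13 and 10 counts in its highest libraries, and just outside it *Col24a1* reached 9 and 7. A count of 0 allows up to 0.0702 to 0.108 CPM, depending on the library.

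With these unequal changes, the make-up of the collagen RNA shifted. Fibrillar chains held 71.5% and 71.9% of collagen counts in NF1-MET vehicle and 81.2% and 81.0% in capmatinib. In NF1-MET;sgP53 they held 77.0% and 77.3% in vehicle and 83.5% and 84.0% in capmatinib. Network chains fell as a share from 12.0% in both NF1-MET vehicle libraries to 5.41% and 5.36%, and from 9.63% and 9.57% to 5.04% and 5.12%, although the tested network chains were called higher in CPM. *Col1a1* alone went from 19.0% and 19.5% to 32.4% in both NF1-MET capmatinib libraries, while *Col1a2* went from 36.2% and 36.1% to 31.6% in both. *Col12a1* went from 3.76% and 3.62% to 8.31% and 8.66% in NF1-MET. These shares are parts of 1 whole, so a rise in 1 lowers others.

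**Figure D3:**
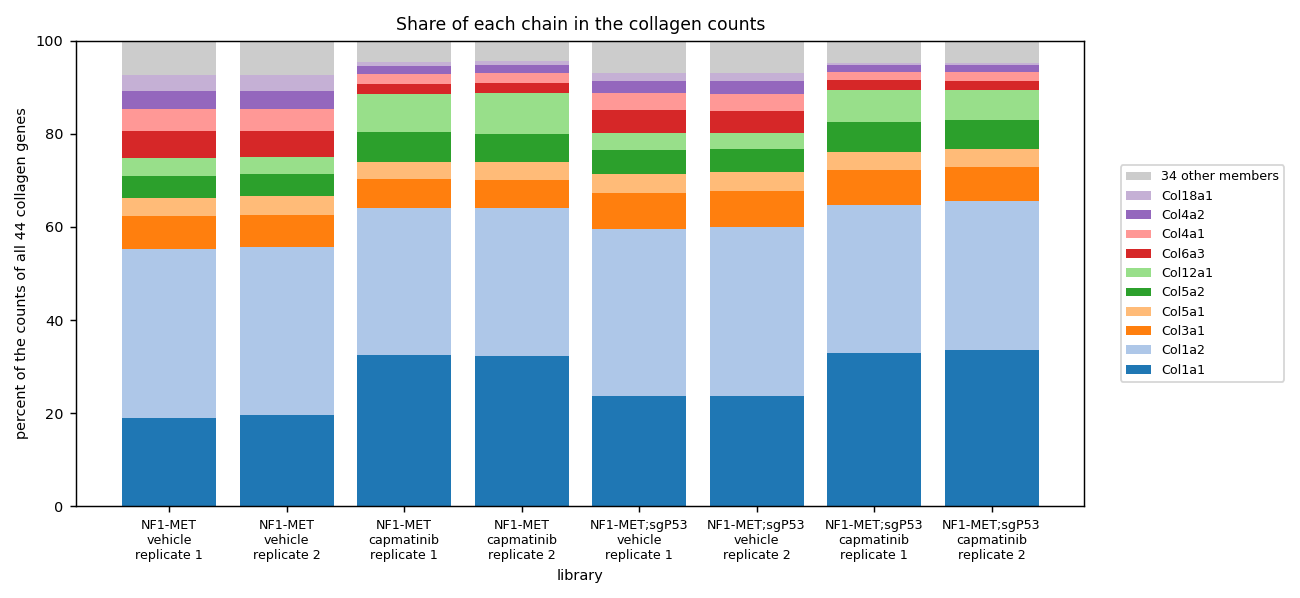
Share of each chain in the counts of all 44 collagen genes in each of the 8 libraries, as stacked percentages with the 10 named chains in colour and the other 34 in grey. *Col1a1* and *Col12a1* take more of the capmatinib bars than of the vehicle bars in both lines, and *Col6a3*, *Col4a1*, *Col4a2* and *Col18a1* take less.

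The ratio of 2 chains within a library does not depend on how libraries are scaled, and partner chains were compared in this way. The test was an exact two-sided permutation test of the log2 ratio of counts over 4 vehicle and 4 capmatinib libraries of both lines, whose smallest p is 0.0286. In 7 of 8 pairs tested, the treated and untreated libraries did not overlap, and the exact permutation p was 0.0286, or 0.0327 adjusted over the 8 pairs. The share of other gene pairs that would separate in this way was not computed. By edgeR, capmatinib changed 70.2% of all genes tested for NF1-MET, while the figure for NF1-MET;sgP53 was 67.6%. Whether such separation is particular to collagen partners was not tested. *Col8a1* over *Col8a2* is 1 of the 7, and *Col8a2* passed the filter through capmatinib libraries alone. Without that pair it was 6 of 7, with an adjusted exact permutation p of 0.0333. This test ignores the line. With treatment permuted within each line, added after seeing the data, 36 arrangements remain, and the exact permutation p was 0.0556 for each of the 8 pairs, the smallest it can give, so no pair could pass 0.05. Without any 1 library the smallest p the test can give is 0.0571.

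For *Col1a1* over *Col1a2* the log2 ratio was -0.93 and -0.89 in NF1-MET vehicle, 0.03 and 0.04 in NF1-MET capmatinib, -0.61 and -0.62 in NF1-MET;sgP53 vehicle and 0.05 and 0.06 in NF1-MET;sgP53 capmatinib. The ratio was thus lowest in NF1-MET vehicle and alike in both treated groups, and its mean was 0.81 higher in capmatinib. Type I collagen consists mostly of molecules with more alpha-1 than alpha-2 chains, and a ratio per length is therefore of use. Per kilobase of the longest transcript, the ratio went from 0.481 to 0.924 in NF1-MET and from 0.589 to 0.938 in NF1-MET;sgP53. Per kilobase of all annotated exons it went from 1.01 to 1.94 and from 1.24 to 1.97, because the exons of *Col1a2* add up to 12426 bp while its longest transcript has 5348 bp. The direction does not depend on the length used and the level does.

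Type V and type VI pairs moved as well. *Col5a1* over *Col5a2* went from -0.25 and -0.25 in NF1-MET vehicle to -0.71 and -0.66 in capmatinib, and from -0.27 and -0.29 to -0.68 and -0.68 in NF1-MET;sgP53, a difference of -0.42. *Col6a1* over *Col6a2* fell by 0.88 and *Col6a3* over *Col6a1* fell by 0.84 on the log2 scale. In NF1-MET the ratio of *Col6a1* to *Col6a2* went from 2.89 and 3.01 to 2.04 and 2.04. The type VI chains were thus closer in raw count after capmatinib, a scale that does not allow for length. Per kilobase of all annotated exons, *Col6a1* over *Col6a2* went from 14.7 to 7.82 in NF1-MET and from 16.2 to 8.98 in NF1-MET;sgP53. On that scale *Col6a3* over *Col6a1* went from 1.25 to 0.751 and from 1.43 to 0.746. Per kilobase of the longest transcript it went from 1.39 to 0.833 and from 1.58 to 0.827. Per length, *Col6a3* thus passed from above *Col6a1* to below it.

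*Col4a5* over *Col4a6* was 0.28 higher in capmatinib. *Col11a1* over *Col11a2* was 2.86 higher, with *Col11a2* at 17 to 57 counts. For *Col8a1* over *Col8a2* the ratio was lower in every capmatinib library, and its size rests on the 0 counts of *Col8a2*, at -3.76 with 0.5 counts added to each chain and -1.54 with 5 added. *Col4a1* over *Col4a2* was the pair whose libraries overlapped over both lines, although they did not within either line. Its log2 ratio was 0.36 and 0.30, 0.27 and 0.24, 0.43 and 0.35 and 0.30 and 0.33 in the groups in the same order, and the mean difference was -0.08 (exact permutation p = 0.0857). Over the 8 libraries this ratio stayed between 0.24 and 0.43.

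**Figure D4:**
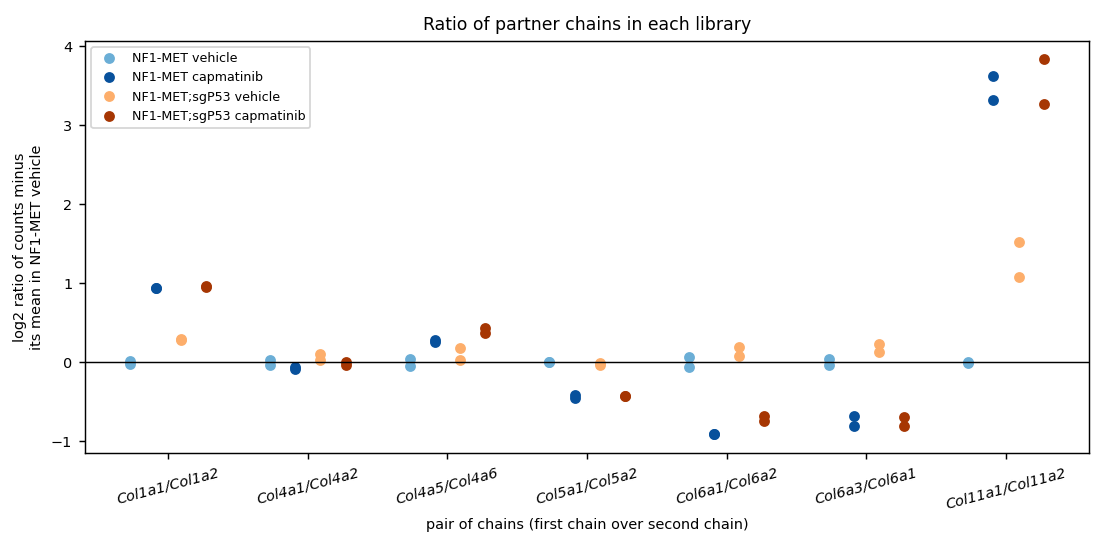
Log2 ratio of the counts of partner chains in each of the 8 libraries, minus the mean of the NF1-MET vehicle libraries, for the 7 pairs without a chain at 0 counts. The capmatinib points leave the vehicle points for 6 pairs, upward for *Col1a1*/*Col1a2*, *Col4a5*/*Col4a6* and *Col11a1*/*Col11a2*, and stay close to them for *Col4a1*/*Col4a2*.

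The second question was how the lines differed. In vehicle, NF1-MET;sgP53 had 10 chains higher and 11 lower than NF1-MET, where 10.9% of all genes were higher and 12.3% lower (23.2% in either direction). With library totals in place of TMM factors the counts were 9 and 7, and the calls of *Col1a2* (0.17), *Col4a5* (-0.14), *Col4a6* (-0.25), *Col6a3* (-0.061) and *Col7a1* (-0.28) were lost. The fibrillar class lay higher, with 7 of 9 chains called higher and *Col27a1* lower, and network chains and chains of other kinds mostly lower. Of 5 FACIT chains 1, *Col16a1*, was called higher. Among network chains 1 was higher and 4 lower, and among the chains of other kinds 1 was higher and 6 lower. Of the 21 calls, 15 remained under every alternative processing in which the chain was tested.

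The largest fibrillar difference was *Col11a1*, at 18.5 CPM (mean of 2) in NF1-MET vehicle and 34.0 CPM in NF1-MET;sgP53 vehicle, a log2 fold change of 0.85 ± 0.055. *Col1a1* differed by 0.40 ± 0.018, *Col3a1* by 0.25 ± 0.021, *Col5a3* by 0.24 ± 0.046, *Col5a2* by 0.18 ± 0.022, *Col5a1* by 0.15 ± 0.023 and *Col1a2* by 0.11 ± 0.017. *Col27a1* was lower by -0.65 ± 0.093. The vehicle libraries of the lines did not overlap for any of these chains.

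Among the chains called lower in NF1-MET;sgP53, *Col18a1* had the largest deficit, -0.87 ± 0.025 on the log2 scale in vehicle and -0.83 ± 0.027 in capmatinib, and adjusted p was 1.49e-15 and 5.50e-13 by Benjamini-Hochberg adjustment of the edgeR test. *Col15a1* differed by -0.77 ± 0.12 and -0.43 ± 0.12. *Col4a2* differed by -0.38 ± 0.025 in vehicle, *Col4a1* by -0.32 ± 0.024, *Col4a6* by -0.31 ± 0.088 and *Col4a5* by -0.20 ± 0.037, whereas the network chain *Col8a1* was higher by 0.16 ± 0.026. The type VI values were -0.45 ± 0.057 for *Col6a2*, -0.30 ± 0.031 for *Col6a1* and -0.12 ± 0.022 for *Col6a3*, with *Col6a4*, at 2 to 18 counts, higher by 1.97 ± 0.57. *Col7a1* differed by -0.33 ± 0.090 and *Col16a1* by 0.15 ± 0.030. The calls of *Col6a4*, *Col4a6* and *Col7a1* were lost in DESeq2's test and without single vehicle libraries. For *Col6a4* this was NF1-MET replicate 2 (1.34, against 2.997 without replicate 1), for *Col4a6* NF1-MET replicate 1 (-0.25) or NF1-MET;sgP53 replicate 2 (-0.19), and for *Col7a1* NF1-MET replicate 1 (-0.22) or NF1-MET;sgP53 replicate 1 (-0.27).

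**Figure D5:**
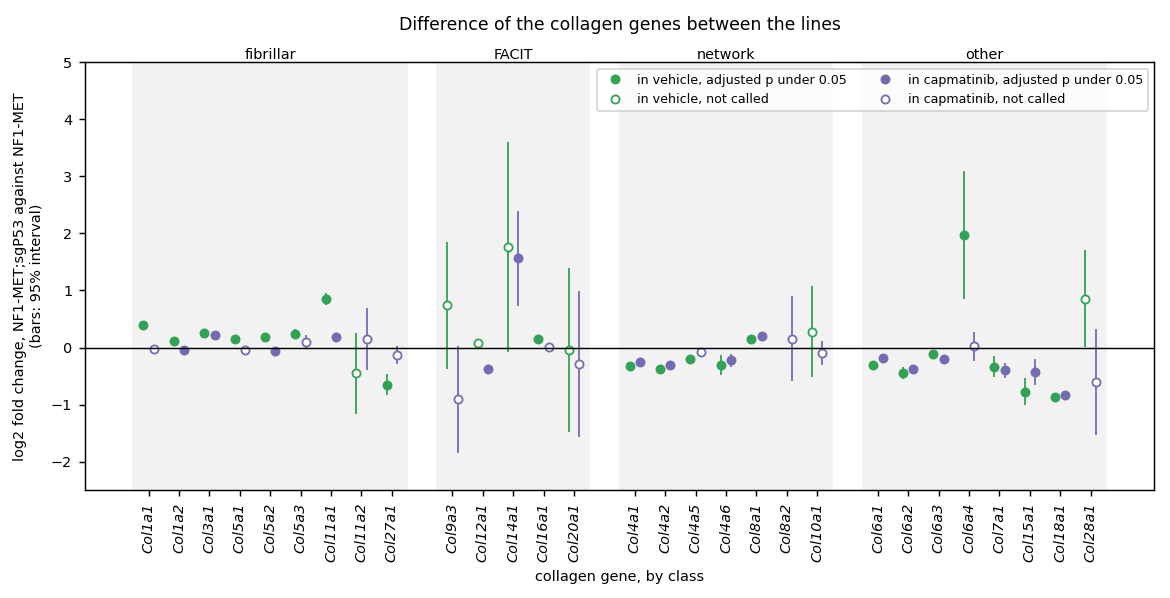
Log2 fold change of each tested collagen gene in NF1-MET;sgP53 against NF1-MET in vehicle (green) and in capmatinib (purple), with bars of the 95% interval and open symbols where the adjusted p was not under 0.05. The fibrillar chains from *Col1a1* to *Col11a1* lie above 0 in vehicle, while in capmatinib *Col3a1* and *Col11a1* were called higher and *Col1a2* and *Col5a2* lower, the *Col4* chains and *Col18a1* lie below 0 in both, and the vehicle value of *Col8a2* is not drawn.

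In capmatinib 4 chains were called higher and 12 lower, against 5.94% and 6.34% of all genes (12.3% together), and the median was -0.10, or -0.17 without NF1-MET;sgP53 capmatinib replicate 1. *Col3a1* (0.22), *Col8a1* (0.21), *Col11a1* (0.18) and *Col14a1* (1.56) were the higher ones, of which *Col14a1* passed the filter through capmatinib libraries alone. Without the 4 chains that depended on those libraries, 3 were higher and 12 lower. After *Col18a1* and *Col15a1*, the largest deficits among called chains were in *Col7a1* (-0.40), *Col6a2* (-0.38), *Col12a1* (-0.38) and *Col4a2* (-0.30). *Col1a1*, at -0.02, was not called. With library totals 3 were higher and 1, *Col18a1*, was lower, *Col5a2* and *Col1a2* turned from -0.06 and -0.04 to 0.057 and 0.075, the median of the chains moved from -0.10 to 0.011, and the median over all genes moved from -0.0010 to 0.11. Calls were also lost there at -0.32 for *Col15a1*, -0.28 for *Col7a1*, -0.27 for *Col6a2* and *Col12a1*, -0.19 for *Col4a2*, -0.13 for *Col4a1*, -0.11 for *Col4a6*, -0.081 for *Col6a3*, -0.069 for *Col6a1* and 0.30 for *Col11a1*. *Gm42418* took 10.0% and 1.11% of counts in the NF1-MET;sgP53 capmatinib libraries. Of the 16 calls, 3 remained under every alternative run, those of *Col18a1*, *Col3a1* and *Col8a1*. Without NF1-MET;sgP53 capmatinib replicate 2 the calls of *Col5a2* (-0.037), *Col15a1* (-0.40), *Col1a2* (-0.036) and *Col14a1* (1.18) were lost, and without replicate 1 those of *Col1a2* (-0.046) and *Col4a6* (-0.21). Without NF1-MET capmatinib replicate 2 those of *Col15a1* (-0.44), *Col1a2* (-0.031) and *Col4a6* (-0.20) were lost, and without replicate 1 that of *Col14a1* (1.33).

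The third question was whether the lines differed in their response. The interaction of line and treatment over the 8 libraries was called for 9 of 29 chains, 1 above 0 and 8 below, against 3.85% and 5.86% of all genes (9.71% together). With library totals 1 was above 0 and 3 below, with the calls of *Col1a1* (-0.36), *Col5a2* (-0.18), *Col5a1* (-0.14), *Col1a2* (-0.093) and *Col16a1* (-0.083) lost, and DESeq2's test had 0 above 0. Of the 9 fibrillar chains 6 were called and of the 7 network chains 0 were by edgeR, with 0 also at an unadjusted p under 0.05 and in DESeq2's test. The fibrillar chains *Col11a1* (-0.69 ± 0.047), *Col1a1* (-0.44 ± 0.020), *Col5a2* (-0.25 ± 0.026), *Col5a1* (-0.22 ± 0.030) and *Col1a2* (-0.17 ± 0.018) rose less in NF1-MET;sgP53 by the edgeR fit with TMM factors, on the log2 scale. So did *Col12a1* (-0.48 ± 0.046), *Col16a1* (-0.16 ± 0.039) and the low chain *Col6a4* (-1.97 ± 0.55). *Col27a1* (0.51 ± 0.12) rose more.

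For *Col1a1* the smaller rise stood beside a higher start. Its vehicle mean was 2447 CPM in NF1-MET and 3278 CPM in NF1-MET;sgP53, and its capmatinib mean was 15390.0 and 15174 CPM. For *Col12a1* the vehicle means were 468 and 502 CPM and the capmatinib means 4031 and 3093 CPM, so that the lines parted in the treated state. For the *Col4* chains the interaction lay between 0.05 and 0.09 on the log2 scale, with SE from 0.032 to 0.11.

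The genes that make, process, bind and degrade collagen were counted from lists. Over all genes tested, 35.5% were called higher and 34.7% lower with capmatinib in NF1-MET, next to 34.2% and 33.4% in NF1-MET;sgP53. Of 23 tested genes for chain synthesis and secretion, 20 rose and 2 fell with capmatinib in NF1-MET (median 0.61 on the log2 scale), and 21 rose and 0 fell in NF1-MET;sgP53 (0.61), where edgeR also had 0 falling at an unadjusted p under 0.05. They included the prolyl hydroxylase subunits *P4ha2* (1.38) and *P4ha3* (2.10), the prolyl 3-hydroxylase *P3h1* (1.02), the folding enzyme *Fkbp14* (1.79) and the transcription factor *Creb3l1* (2.05), as log2 fold changes in NF1-MET. The 2 that fell in NF1-MET, named after their values were seen, were the chaperone *Hsp90b1* (-0.24) and the export factor *Mia2* (-0.08), and neither was called in NF1-MET;sgP53.

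Processing and crosslinking genes followed. Of 12 tested, 10 rose and 2 fell in each line, with medians of 1.06 and 0.75. *Lox*, which crosslinks collagen through lysine, was at 80.4 and 80.8 CPM in NF1-MET vehicle and 1390.3 and 1374 CPM in capmatinib, a log2 fold change of 4.08. *Tgm2*, a transglutaminase, changed by 3.18, *Loxl2* by 2.78, and *Adamts2*, which removes the propeptide of procollagen, by 2.25. *Loxl4* and *Loxl1*, lysyl oxidase relatives, changed by 1.10 and 1.01. The 2 that fell, again named after their values were seen, were *Pcolce2* (-1.41) and *Adamts14* (-0.98). The interaction was called for 6 of these 12 genes, all below 0, where 5.86% of all genes were called below 0.

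Receptors and degradation genes stand against the same shares of all genes. Of 10 tested receptors 8 rose and 1 fell in NF1-MET, and 8 rose and 2 fell in NF1-MET;sgP53. *Itga11*, an integrin subunit for fibrillar collagen, went from 0.386 and 0.301 CPM to 45.2 and 43.6 CPM in NF1-MET, and *Itga1*, a subunit that binds type IV collagen, from 6.39 and 5.94 CPM to 63.1 and 65.0 CPM. *Cd44*, a hyaluronan receptor that also binds collagen, went from 843 and 865 CPM to 466 and 453 CPM in NF1-MET, a log2 fold change of -0.91, and the other receptor called lower in NF1-MET;sgP53 was *Itga10* (-0.77), both named after their values were seen. Of 12 tested genes for degradation and its inhibitors, 7 rose and 3 fell in NF1-MET, and 8 rose and 2 fell in NF1-MET;sgP53. The protease *Mmp16* rose by 1.51 and the inhibitor *Timp1* fell by 1.51 on the log2 scale, while the inhibitors *Timp2* (0.93) and *Timp3* (0.20), named after their values were seen, rose. The others that fell in NF1-MET were *Fap* (-1.05) and *Ctsl* (-0.45), also named with their values known.

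Markers of lineage were counted in the same way, where 70.2% and 67.6% of all genes were called in either direction in the respective lines. The summed Schwann lineage level went from 252 and 258 CPM to 123 and 124 CPM in NF1-MET, where 3 of 8 tested genes rose and 3 fell. In NF1-MET;sgP53 it went from between 192 and 193 CPM to between 116 and 120.0 CPM, with 3 rising and 4 falling. The summed fibroblast and mesenchymal level was between 6347 and 6858 CPM in all libraries, of which *Vim* alone made up 4708 to 5693 CPM. Without *Vim*, a sum taken after seeing the data, it went from 1165 and 1169 CPM to 1661 and 1674 CPM in NF1-MET, and from 1184 and 1208 CPM to 1765 and 1754 CPM in NF1-MET;sgP53. The list had 4 of 10 tested genes up and 4 down in NF1-MET, 4 up and 3 down in NF1-MET;sgP53, and *Lum* at 0 in all but 1 library. *Postn*, a matrix protein of that list, rose by 4.95, and the receptor *Pdgfrb* by 1.29. The 4 that fell in NF1-MET, named after their values were seen, were *Fap* (-1.05), *Dcn* (-0.86), *Pdgfra* (-0.38) and *Vim* (-0.21). In NF1-MET *Sox2* changed by -2.55, *Sox9* by -2.02 and *Gap43* by -2.72 on the log2 scale, and *Egr2*, a regulator of myelin genes, by 2.18. The part of these markers in the collagen changes was not tested.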

How the data were processed

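RNA from 8 cell cultures, 2 for each of 4 groups, was sequenced by the authors after poly(A) selection with the KAPA mRNA HyperPrep kit, from both ends. Per the labels and methods, reads were demultiplexed with bcl2fastq 1.9.0, trimmed with Trim Galore 0.4.2 at a quality of 20, checked with FastQC 0.11.7 and mapped to mm10 with STAR 2.5.2b, and the authors deposited the raw count of every gene, not normalized. The annotation release and the strand setting are not given in the sources used here, and 0 columns of sample values were left out.

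The members and lists were chosen with earlier results of these data known. Genes with 10 or more counts in 2 or more libraries were kept (14497 genes), and those removed held 0.0396% of counts. Each comparison used edgeR 4.0.16 in R 4.3.3 on the compared libraries with TMM factors, a quasi-likelihood F-test and Benjamini-Hochberg adjustment, with a threshold of 0.05. The interaction used all 8 libraries. The model was tested on simulated data first, where all changed genes were called and false calls took a larger share than the threshold allows in most comparisons. CPM used TMM factors over the 8 libraries. Totals of 30116810 to 42781371 counts set the precision, and intervals cover counting error only. Ratios of partner chains had 0.5 counts added to each chain and were compared by an exact permutation test in SciPy 1.17.1.

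All members past the filter were to be named, with the value of every library for those with a group mean of 10 CPM or more, and list genes were named where a called change in NF1-MET reached 1 on the log2 scale at that level. Gene positions came from GENCODE M21, which held 50376 of the identifiers (99.6%), and windows at start sites came from RefSeq. Figures were drawn with matplotlib 3.10.9. Alternatives were DESeq2 1.42.0 size factors or its Wald test, library totals, no filter or a stricter one (fewer than 2 libraries under 10 counts), *Gm42418* left out, all libraries in 1 model, the replicate number as a block, and each library left out in turn. Scaled by library totals with *Gm42418* kept, the replicates of a group differed by more than sampling noise. TMM factors were not used for this, so shifts in composition count as spread. The labels number the replicates without saying that a number marks a shared batch. A planned search of protein sequences was not run here.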

Additional observations from a re-analysis of the deposited data

Results flagged for a closer look

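For 9 collagen chains the response to capmatinib differed between NF1-MET and NF1-MET;sgP53 by the interaction term of edgeR, given here as the log2 change in NF1-MET;sgP53 minus that in NF1-MET. Values were -0.69 for *Col11a1*, -0.48 for *Col12a1*, -0.44 for *Col1a1*, -0.25 for *Col5a2*, -0.22 for *Col5a1*, -0.17 for *Col1a2*, -0.16 for *Col16a1* and -1.97 for *Col6a4*, all rising less in NF1-MET;sgP53, and 0.51 for *Col27a1*, which rose more. *Col11a1* and *Col12a1* were called under every alternative run on them.

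The other 7 calls each depended on at least 1 choice. With library totals in place of TMM factors, *Col1a1* (-0.36), *Col1a2* (-0.093), *Col5a1* (-0.14), *Col5a2* (-0.18) and *Col16a1* (-0.083) were no longer called. *Col27a1* was not called in DESeq2's test (0.52) or without NF1-MET;sgP53 vehicle replicate 1 (0.41). *Col16a1* was not called without NF1-MET;sgP53 vehicle replicate 2 (-0.12) or capmatinib replicate 2 (-0.13). *Col6a4*, with 2 to 18 counts in vehicle, was not called without NF1-MET vehicle replicate 2 (-1.34, against -2.99 without replicate 1) or without NF1-MET;sgP53 vehicle replicate 1 (-1.95) or 2 (-2.00). With 2 libraries in each group, no group could be searched for outlying samples.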

How the results depend on the processing

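Calls that remained under every alternative in which the chain was tested numbered 22 of 25 for capmatinib in NF1-MET, 25 of 25 in NF1-MET;sgP53, 15 of 21 between lines in vehicle, 3 of 16 in capmatinib and 2 of 9 for the interaction. Scaling by library totals moved the median of all genes to -0.18 and -0.12 for capmatinib in NF1-MET and NF1-MET;sgP53, to 0.06 and 0.11 between lines in vehicle and capmatinib, and to 0.05 for the interaction. The medians of the chains then became 0.82, 0.99, 0.17, 0.011 and -0.081, the fourth of which changed sign from -0.10. Chains called lower became 7 (from 11) in vehicle, 1 (from 12) in capmatinib and 3 (from 8) for the interaction, and between lines in capmatinib *Col5a2* (0.057) and *Col1a2* (0.075) changed sign.

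Without the filter the medians were 0.97 for NF1-MET, 1.33 for NF1-MET;sgP53 and 0.026 between lines in vehicle. With the stricter filter, which tested fewer chains, they were 0.95 for NF1-MET, -0.048 for the interaction and -0.12 between lines in vehicle, a change of sign from 0.11. With all libraries in 1 model the NF1-MET median was 1.02. For the interaction, DESeq2's test called 0 chains above 0 (adjusted p = 0.0599 for *Col27a1*) and gave a median of -0.11, and 2 chains were called above 0 without *Gm42418*. Setting chains at the floor to their bound, an alternative chosen after seeing the data, gave medians of 0.079 between lines in vehicle and -0.10 for the interaction.

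Leaving out 1 library gave medians of 0.99 to 1.14 in NF1-MET, 1.10 to 1.34 in NF1-MET;sgP53, -0.17 (without NF1-MET;sgP53 capmatinib replicate 1) to -0.077 between lines in capmatinib, and -0.17 to -0.059 (without NF1-MET capmatinib replicate 2) for the interaction. The interaction then had 0 chains called above 0 without NF1-MET;sgP53 vehicle replicate 1 and 2 without replicate 2. The cause of these shifts was not tested. For partner ratios, permuting treatment within lines left no p under 0.05, which that test cannot reach, nor can it without 1 library. The log2 differences kept their direction. They were 0.81 for *Col1a1*/*Col1a2* (0.75 to 0.86 without 1 library), 0.28 for *Col4a5*/*Col4a6* (0.25 to 0.32), -0.42 for *Col5a1*/*Col5a2* (-0.42 to -0.41), -0.88 for *Col6a1*/*Col6a2* (-0.92 to -0.84), -0.84 for *Col6a3*/*Col6a1* (-0.88 to -0.79), -3.76 for *Col8a1*/*Col8a2* (-4.23 to -3.43, a size set by the 0.5 counts added, since 5 added gave -1.54) and 2.86 for *Col11a1*/*Col11a2* (2.64 to 3.15).

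Replicate numbers are shared across groups, and same-numbered libraries did not deviate together (Pearson's r across genes between -0.054 and 0.102 over pairs of groups). With the replicate block, 23 chains rose and 2 fell in each line, 11 were higher and 11 lower between lines in vehicle, and 4 were higher and 12 lower in capmatinib. The interaction had 1 above 0 and 8 below. *Col12a1* between lines in vehicle was newly called, and the block changed no other call. With 2 libraries in each group, and 2 counts or fewer of some chains, changes in the low chains are the least precise.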
